A study of Mus musculus with 48 samples.

Results

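The livers compared here came from mice on day 3 of lipopolysaccharide (LPS) administration and from mice of the negative control group (NC), all labelled as sampled at ZT21. The comparison rests on 6 of the 48 libraries of the series, 3 LPS libraries of day 3 and 3 NC libraries of day 7, each assigned by its title. All 29331 genes of the count table were considered, and 16101 passed a filter on low counts and were tested. The NC libraries are of day 7 and no NC library of day 3 was analysed here, so the effect of LPS and that of the day cannot be told apart.

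The study followed male wild-type mice given LPS, a bacterial cell wall component, continuously for 7 days, and NC mice, whose own treatment the sources used here do not give. Day 3 lies within the period of administration. Zeitgeber time (ZT) counts hours since lights on, so ZT21 lies in the late dark phase, when mice are active. Further NC livers of day 7 were collected at ZT1, ZT5, ZT9, ZT13 and ZT17, and further LPS livers at ZT21 on days 5, 7, 9 and 11, with 3 libraries in each group. The sources used here do not give the strain, the age, or the dose and route of LPS. The labels call the libraries biological replicates without saying that each came from its own animal, and p-values then reflect only how far these libraries differ, which may be technical.

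The 6 libraries held 32.8 to 37.6 M counts, within the 28.2 to 45.3 M of the series. The 3 day 3 libraries differed by more than sampling noise, with a median chi-square per gene of 2.28 between replicates 1 and 2, 4.64 between replicates 1 and 3, and 4.34 between replicates 2 and 3, where sampling alone gives 0.455. The liver label was met by its markers: 16 hepatocyte genes, albumin among them, summed to between 99200 and 140000 CPM (counts divided by the library's scaled total in M) in the 6 libraries. The 5 tested genes of gut, pancreas and fat summed to between 44.2 and 71.8 CPM. They were part of 15 listed for other tissues. The muscle genes, Amy2a5 and Ctrb1 of pancreas, and Adipoq and Plin1 of fat had too few counts to be tested. Prss1, Cpa1 and Pnlip of pancreas were not in the count table.

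The clock genes of the day 3 libraries did not stand where their label puts them. Each library was placed on 24 h curves of 19 clock genes fitted to the 18 NC libraries. The NC libraries labelled ZT21 read 20.7, 21.5 and 22.6 h. The day 3 libraries, also labelled ZT21, read 6.3, 6.1 and 6.9 h, between the ZT5 and ZT9 collections of NC. These readings lay 9.3, 9.1 and 9.9 h from the label, against an error of -2.2 to 2.5 h over the 18 NC libraries, each read with itself left out. The cause of the offset was not tested. All 3 day 3 libraries show it, so no value can be given without them. Changes against NC at ZT21 are therefore set beside those against NC livers of ZT5, from a fit of all 48 libraries. Changes against ZT21 come from a fit of the 18 libraries of ZT21, so numbers of calls also depend on the fit. Both changes, and that against LPS livers of day 7, use the same 3 day 3 libraries, so they are not independent of each other.

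LPS is sensed by the receptor TLR4 with its co-receptors CD14 and MD-2. The liver clears LPS from portal blood through its resident macrophages, the Kupffer cells, and hepatocytes answer macrophage cytokines by secreting acute-phase proteins. The hepatocyte clock is a feedback loop in which the activators BMAL1 (Arntl), CLOCK and NPAS2 switch on their own repressors, the period and cryptochrome genes, through DNA elements called E-boxes. A second loop runs through the REV-ERB repressors (Nr1d1, Nr1d2) and ROR activators, and the PAR bZIP factors DBP, TEF and HLF pass the rhythm on to metabolic genes through D-boxes.

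Across all genes, 1652 were higher and 1651 lower on day 3 than in NC at ZT21, at an adjusted p under 0.05 in the quasi-likelihood test of edgeR, adjusted by the Benjamini-Hochberg method. These were 10.3% of the genes tested in each direction, and are called genes from here on. More of the rises than of the falls were over 2-fold, 935 against 425. The 3 day 3 libraries lay above all 3 NC libraries of ZT21 for 20.8% of genes and below them for 20.6%. They lay above all 18 NC libraries of the 6 times of day for 4.83% of genes and below all 18 for 3.42%, including 623 of the called rises and 420 of the called falls. Of 16858 genes tested against NC at ZT5, 7.31% were called, 664 of them higher (3.94%) and 569 lower (3.38%). Against LPS livers of day 7, 17.3% were called, 1236 of them higher (7.68%) and 1554 lower (9.65%). The total of 3303 against NC at ZT21 was 2109 without NC replicate 2 and 2182 without NC replicate 3.

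Most clock genes were lower than NC at ZT21, and few were called against NC at ZT5. Of 19 tested, 2 were higher and 10 lower than NC at ZT21, with a median log2 change of -0.83, against 0.01 over all genes. In the comparison with NC at ZT5, 1 was higher and 1 lower, against 3.94% and 3.38% of all genes. No clock gene lay outside the range of the 18 NC libraries in all 3 day 3 libraries. Expression summed over the 19 genes was 917 to 989 CPM in NC at ZT21 and 431 to 462 CPM on day 3, and ran from 474 to 1330 CPM over the 18 NC libraries, so the day 3 sums were slightly under that range.

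The repressors of the loop were among the falls. Per1 read 70.6, 66.7 and 61.6 CPM in NC at ZT21 and 3.62, 2.15 and 2.44 CPM on day 3. The groups were far apart, and the day 3 values were close to the 4.18 ± 0.62 CPM (SD, n = 3) of NC at ZT5. Per1 fell by 4.60 ± 0.40 (SE) on the log2 scale (edgeR adjusted p = 8.57e-06), while the change against ZT5 was -0.61 ± 0.55 (edgeR adjusted p = 0.562). Per2 read 115, 110 and 105 CPM in NC and 14.3, 12.1 and 26.5 CPM on day 3, a fall of 2.64 ± 0.54 (edgeR adjusted p = 0.00441), with 0.62 ± 0.42 against ZT5 (edgeR adjusted p = 0.414). Per3 read 22.2, 21.1 and 19.2 CPM against 1.80, 0.651 and 4.78 CPM, a fall of 3.11 ± 0.52 (edgeR adjusted p = 0.00117), with -0.81 ± 0.50 against ZT5 (edgeR adjusted p = 0.351). For Per2 and Per3 replicate 3 was the highest day 3 library, yet still under every NC library of ZT21. Ciart, a repressor of CLOCK:BMAL1, read 6.86, 9.46 and 3.65 CPM against 0.235, 0.651 and 0.986 CPM and fell by 3.41 ± 0.54 (edgeR adjusted p = 0.000494), with 0.47 ± 0.61 against ZT5 (edgeR adjusted p = 0.712).

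The cryptochromes form the other arm of the repressor complex. Cry1 read 33.9, 46.7 and 49.8 CPM in NC at ZT21 and 24.6, 21.9 and 20.5 CPM on day 3, without overlap. It fell by 0.97 ± 0.23 (edgeR adjusted p = 0.00808), was at -0.12 ± 0.26 against ZT5 (edgeR adjusted p = 0.834), and stood at 0.16 against the mean of NC over the 6 times (edgeR adjusted p = 0.608), where the sign turned. Cry2 fell by 0.83 ± 0.20 (edgeR adjusted p = 0.00848) and was at 0.02 ± 0.20 against ZT5 (edgeR adjusted p = 0.971). In the PAR bZIP family Tef read 111, 126 and 101 CPM against 22.3, 23.3 and 32.7 CPM and fell by 2.11 ± 0.16 (edgeR adjusted p = 9.35e-07), with -0.38 ± 0.23 against ZT5 (edgeR adjusted p = 0.347). Hlf fell by 0.52 ± 0.14 (edgeR adjusted p = 0.0171), a call lost without day 3 replicate 1 or 2 or NC replicate 2, at adjusted p of 0.0713, 0.0631 and 0.0815, and its change against ZT5 was 0.14 ± 0.17 (edgeR adjusted p = 0.695). Dbp overlapped between the groups, at 7.08, 5.14 and 4.31 CPM against 2.53, 1.88 and 4.32 CPM, and was not called at -0.92 ± 0.51 (edgeR adjusted p = 0.223), nor against ZT5 at 0.81 ± 0.69 (edgeR adjusted p = 0.535).

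Among the activators, Npas2 read 0.0629, 0.405 and 1.90 CPM in NC at ZT21 and 18.2, 21.1 and 9.96 CPM on day 3. All day 3 libraries were above the 3 NC libraries, and NC at ZT5 stood at 12.2 ± 0.50 CPM (SD, n = 3). The rise was 4.37 ± 1.21 (edgeR adjusted p = 0.0229), and the call was lost without day 3 replicate 2, NC replicate 1 or NC replicate 2, at adjusted p of 0.056, 0.0707 and 0.0879. Its change against ZT5 was 0.44 ± 0.72 (edgeR adjusted p = 0.781). Arntl, at 19.6, 20.2 and 21.1 CPM against 25, 28.8 and 24.6 CPM, was not called at 0.36 ± 0.38 (edgeR adjusted p = 0.553), and Clock was not called at -0.20 ± 0.16 (edgeR adjusted p = 0.422). Genes on the strand opposite to Arntl, Nr1d1, Cry2, Dbp and Tef overlap them, and the strand setting of the counting is not stated, so their counts may hold reads of the partner.

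A gene of the second loop departed from NC at ZT5 as well. Nr1d1, which encodes REV-ERB-alpha, read 5.51, 2.90 and 2.95 CPM in NC at ZT21 and 72.3, 54.1 and 45.3 CPM on day 3. The rise was 3.91 ± 0.48 against ZT21 (edgeR adjusted p = 0.000117) and 2.65 ± 0.48 against ZT5 (edgeR adjusted p = 0.00087). Its day 3 mean of 57.2 ± 13.8 CPM (SD, n = 3) lay between the 9.15 ± 3.05 CPM of NC at ZT5 and the 105 ± 34.3 CPM of NC at ZT9. Bhlhe40, which encodes the repressor DEC1, read 139, 95.9 and 92.2 CPM against 36, 31.2 and 62.2 CPM, without overlap, and fell by 1.34 ± 0.29 (edgeR adjusted p = 0.00496), with -0.54 ± 0.27 against ZT5 (edgeR adjusted p = 0.239). Among other members, Nr1d2, Rora, Nfil3 and Bhlhe41 overlapped between the groups and were not called, at -0.13, -0.22, -0.14 and -0.24.

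**Figure D1:**
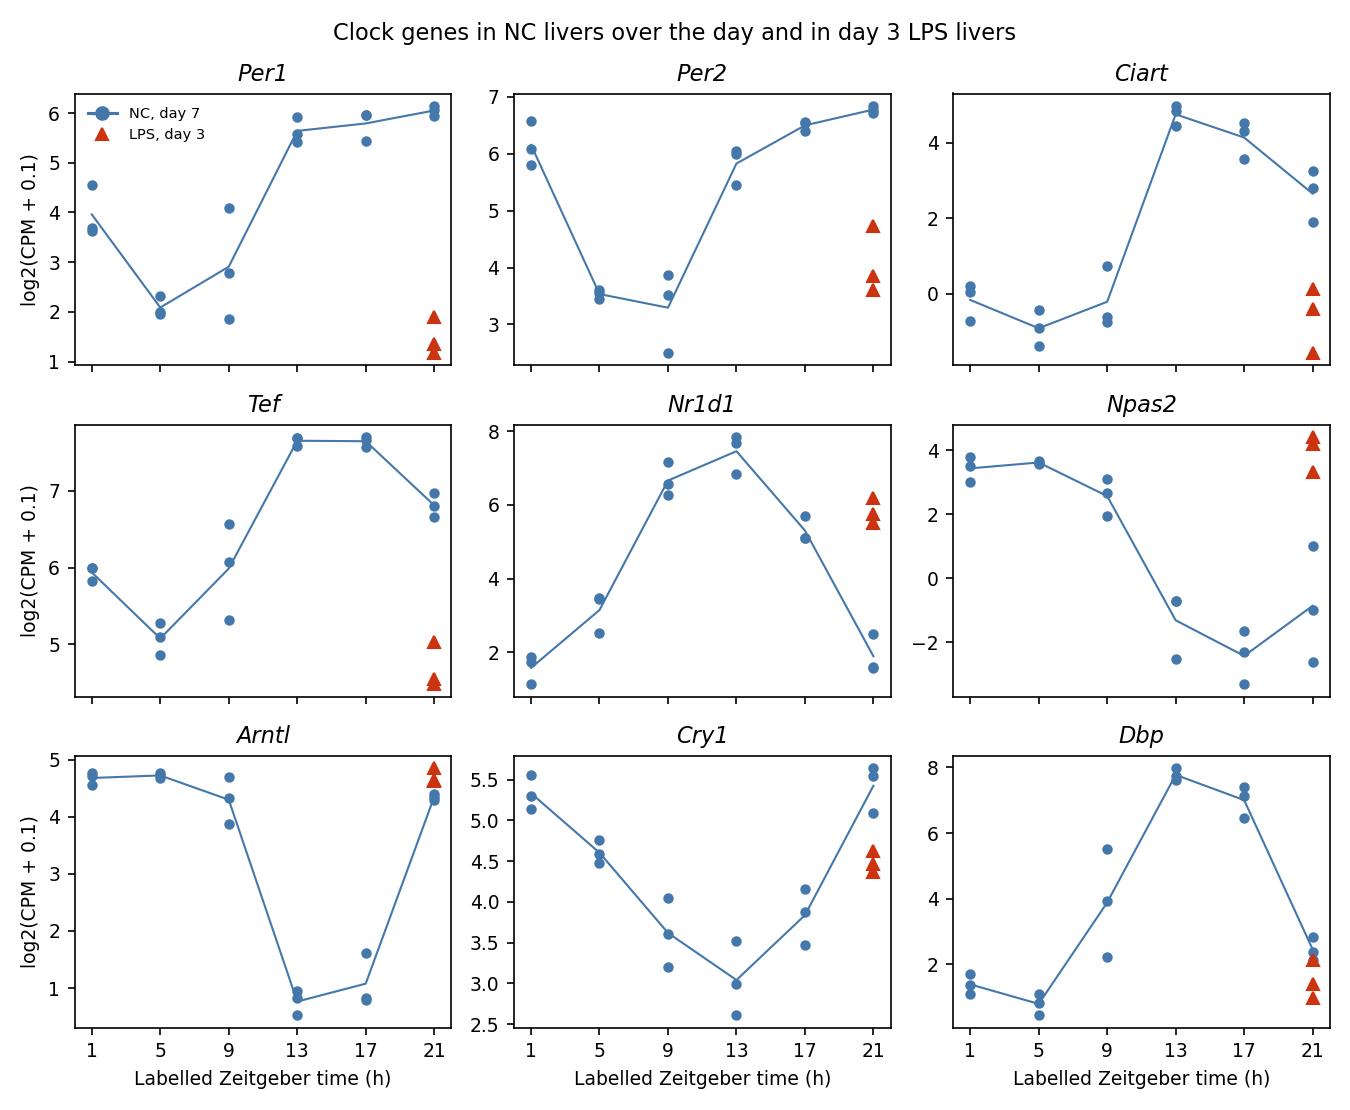
Expression of 9 clock genes, as log2 of CPM plus 0.1, against the labelled Zeitgeber time in hours. Blue points are NC libraries of day 7, with a line through the group means, and red triangles are the 3 LPS libraries of day 3 at their labelled time. For Per1 the triangles sit at 2.15 to 3.62 CPM, below the NC points of ZT21 at 61.6 to 70.6 CPM and beside those of ZT5.

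Promoter sequences are shown for 5 repressor and output genes of the loop, chosen because they fell and hold elements through which clock proteins act. RefSeq windows of GRCm38.p6, from 250 bases before to 50 after a gene's start, were matched by symbol for 16 of the 19 clock genes. The E-box CACGTG, which reads the same on both strands, stood in 5 of the 16, and in 7.15% of 32851 windows of all genes. The D-box TTATGTAA, searched on both strands, stood in 1 of the 16, and in 0.938% of all windows. Motif and fall did not always go together. Bhlhe41 held an E-box and was not called, while Cry2 and Hlf fell and held neither motif. Capitals mark the E-box in Per1 (chr11:69098699-69098998, plus strand, motif at -166 from the start), Cry1 (chr10:85185005-85185304, minus strand, -60), Tef (chr15:81802423-81802722, plus strand, -127) and Ciart (chr3:95882179-95882478, minus strand, 3 copies), and the D-box in Per3 (chr4:151044616-151044915, minus strand, 2 copies). No window shown held both motifs. A match describes letters only, and no binding was measured.
Per1: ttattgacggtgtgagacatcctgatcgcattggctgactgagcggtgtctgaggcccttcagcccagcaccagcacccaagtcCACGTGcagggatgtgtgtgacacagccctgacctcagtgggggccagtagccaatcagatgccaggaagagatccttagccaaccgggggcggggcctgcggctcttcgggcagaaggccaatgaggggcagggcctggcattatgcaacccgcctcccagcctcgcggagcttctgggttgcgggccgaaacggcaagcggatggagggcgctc
Cry1: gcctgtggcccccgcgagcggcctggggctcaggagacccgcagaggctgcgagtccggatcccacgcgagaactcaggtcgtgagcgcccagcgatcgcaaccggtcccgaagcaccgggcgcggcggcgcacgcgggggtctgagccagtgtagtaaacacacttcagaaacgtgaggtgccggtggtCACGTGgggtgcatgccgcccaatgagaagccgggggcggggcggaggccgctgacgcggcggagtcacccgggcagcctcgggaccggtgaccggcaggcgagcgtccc
Tef: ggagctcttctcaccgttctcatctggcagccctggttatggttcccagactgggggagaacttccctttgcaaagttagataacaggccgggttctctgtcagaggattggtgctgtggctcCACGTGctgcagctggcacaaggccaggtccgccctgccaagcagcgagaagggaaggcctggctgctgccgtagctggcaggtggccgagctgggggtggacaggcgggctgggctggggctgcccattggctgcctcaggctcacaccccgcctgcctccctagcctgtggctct
Ciart: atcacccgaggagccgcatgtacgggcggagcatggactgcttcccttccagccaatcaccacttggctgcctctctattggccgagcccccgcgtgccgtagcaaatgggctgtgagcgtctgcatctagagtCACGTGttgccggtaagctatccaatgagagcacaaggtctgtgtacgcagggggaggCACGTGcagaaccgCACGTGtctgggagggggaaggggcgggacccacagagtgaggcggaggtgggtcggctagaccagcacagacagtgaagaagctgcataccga
Per3: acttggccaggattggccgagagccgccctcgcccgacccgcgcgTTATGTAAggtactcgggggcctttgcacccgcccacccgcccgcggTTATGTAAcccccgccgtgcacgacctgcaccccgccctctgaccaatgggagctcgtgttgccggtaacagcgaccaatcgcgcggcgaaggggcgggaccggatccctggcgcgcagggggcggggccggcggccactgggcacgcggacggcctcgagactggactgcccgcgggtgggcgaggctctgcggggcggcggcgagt

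Clock output genes, which clock factors switch on and off, were mostly lower than NC at ZT21. Of 18 tested, 1 was higher and 11 lower, with a median of -0.99, and 1 was higher and 2 lower than NC at ZT5. Usp2, a ubiquitin protease under direct clock control, read 42.4, 56.1 and 36.8 CPM in NC and 1.15, 1.00 and 2.61 CPM on day 3. It fell by 4.82 ± 0.48 (edgeR adjusted p = 2.82e-05) and by 1.26 ± 0.39 against ZT5 (edgeR adjusted p = 0.0454). Noct, which encodes nocturnin, read 76.8, 103 and 63.4 CPM against 4.07, 4.61 and 7.30 CPM and fell by 3.93 ± 0.43 (edgeR adjusted p = 5.47e-05), with 0.14 ± 0.47 against ZT5 (edgeR adjusted p = 0.896). Coq10b, a coenzyme Q10 binding protein gene, read 28.8, 29.7 and 26.4 CPM against 9.31, 11.1 and 9.35 CPM and fell by 1.52 ± 0.15 (edgeR adjusted p = 8.98e-06), with 0.09 ± 0.20 against ZT5 (edgeR adjusted p = 0.849). None of these values overlapped between day 3 and NC at ZT21. Lpin1, which encodes the phosphatidate phosphatase lipin 1, read 370, 493 and 374 CPM against 19.6, 17.2 and 18.5 CPM. It fell by 4.49 ± 0.47 (edgeR adjusted p = 3.77e-05), and its 3 day 3 values lay under the lowest of all 18 NC libraries, 22.3 CPM. Against ZT5 it was not called, at -1.02 ± 0.57 (edgeR adjusted p = 0.295).

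Macrophage genes were higher on day 3 than in NC of ZT21 and of ZT5. Of 20 Kupffer cell and macrophage genes, 16 were higher and none lower than NC at ZT21, with a median log2 change of 1.55. Against NC at ZT5 11 were higher, against LPS of day 7 14 were higher, and none was lower in either. For 14 of the 20 all 3 day 3 libraries lay above all 18 NC libraries. Their summed expression was 368, 245 and 263 CPM in NC at ZT21 and 831, 1010 and 953 CPM on day 3, against 224 to 506 CPM over the 18 NC libraries. In bulk liver more cells of a type and more RNA per cell cannot be told apart.

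Marco, a scavenger receptor for bacteria, had the largest of the 15 rises named among genes with a mean log2 CPM of at least 1. It read 2.77, 1.59 and 1.62 CPM in NC at ZT21 and 80.8, 112 and 139 CPM on day 3, while the highest of the 18 NC libraries held 7.69 CPM. The rise was 5.79 ± 0.40 (edgeR adjusted p = 9.35e-07), 5.01 ± 0.79 against ZT5 (edgeR adjusted p = 0.000217) and 3.14 above LPS of day 7 (edgeR adjusted p = 6.26e-05). Adgre1, which encodes the macrophage marker F4/80, read 7.65, 5.32 and 4.88 CPM against 28.6, 44.0 and 43.8 CPM. It rose by 2.70 ± 0.23 (edgeR adjusted p = 1.87e-06) and by 2.18 ± 0.30 against ZT5 (edgeR adjusted p = 3.53e-05). Lyz2, which encodes lysozyme of phagocytes, read 28.6, 19.4 and 18.0 CPM against 125, 151 and 154 CPM and rose by 2.70 ± 0.23 (edgeR adjusted p = 3.37e-06) and by 2.02 ± 0.30 against ZT5 (edgeR adjusted p = 8.65e-05). Csf1r, the receptor for the growth factor of macrophages, read 43.8, 29.8 and 31.1 CPM against 98.8, 108 and 96.5 CPM and rose by 1.53 ± 0.17 (edgeR adjusted p = 1.96e-05) and by 1.21 ± 0.23 against ZT5 (edgeR adjusted p = 0.00153). In these genes every day 3 library was above every NC library of any time of day.

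The 4 macrophage genes that were not called included Clec4f, a lectin found in the liver only on Kupffer cells, at 0.30 (edgeR adjusted p = 0.263), and the haemoglobin scavenger receptor Cd163, at 0.25 (edgeR adjusted p = 0.607). Vsig4, another Kupffer cell receptor, rose by 0.97 (edgeR adjusted p = 0.00501), with 0.42 ± 0.28 against ZT5 (edgeR adjusted p = 0.394). Clec4n, which encodes the fungal receptor dectin-2 of myeloid cells, read 0.850, 0.529 and 0.666 CPM in NC and 6.15, 6.84 and 6.61 CPM on day 3. It rose by 3.25 ± 0.51 (edgeR adjusted p = 0.000432), and by 2.18 ± 0.53 against ZT5 (edgeR adjusted p = 0.00949). The subunits of C1q, a complement component made by macrophages, rose by 1.09 to 1.37, and C1qc read 29.6, 20.1 and 22.4 CPM against 60.7, 69.2 and 58.1 CPM (edgeR adjusted p = 5.96e-05). Against ZT5 C1qc rose by 0.81 ± 0.23 (edgeR adjusted p = 0.0226), while C1qa at 0.52 ± 0.22 (edgeR adjusted p = 0.135) and C1qb at 0.77 ± 0.26 (edgeR adjusted p = 0.067) were not called.

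Neutrophil genes were near 0 in NC and low but present on day 3. Of 14 listed, 12 were tested, and Il1r2 and Ly6g had too few counts. Of the 12, 11 were higher than NC at ZT21 and 9 higher than NC at ZT5. All 12 lay above the 18 NC libraries in every day 3 library. Members with 3 or fewer counts over the NC libraries of ZT21 passed the filter on low counts only through LPS groups. The numbers of rises were therefore partly fixed by the filter. The median log2 change was 4.51 with the 4 genes that had no count in any NC library of ZT21 set at the bound that 3 counts over the group give. Summed expression over the tested genes was 3.49, 2.05 and 2.79 CPM in NC and 28.0, 31.5 and 38.0 CPM on day 3. S100a9, a subunit of the protein calprotectin, read 0.315, 0 and 0 CPM in NC and 5.21, 5.31 and 7.35 CPM on day 3, a rise of 5.78 ± 0.76 (edgeR adjusted p = 0.000117), and of 5.04 ± 1.21 against ZT5 (edgeR adjusted p = 0.00903). Its partner S100a8 had 3 counts over the NC libraries and 518 over the day 3 libraries, a ratio of 139 with an exact 95% interval of 47.2 to 675 that covers counting error only. Mpo, the myeloperoxidase of neutrophil granules, had no count in NC and 336 on day 3. That is 89.9-fold higher at a floor of 3 counts over the NC libraries, and the exact 95% lower limit of the ratio was 72.7 for counting error only. Csf3r, the receptor for the growth factor of neutrophils, read 2.27, 1.59 and 2.03 CPM against 8.84, 8.92 and 9.72 CPM and rose by 2.22 ± 0.24 (edgeR adjusted p = 2.03e-05) and by 1.85 ± 0.42 against ZT5 (edgeR adjusted p = 0.00524). Against LPS of day 7 only 1 of the 12 genes was called higher.

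A part of the lymphocyte and plasma cell genes was also higher, at low levels. Of 17 genes of T, NK and B cells 10 were higher and none lower, and 1 was higher than NC at ZT5. Their sum was 5.54 to 7.17 CPM in NC and 20.3 to 24.1 CPM on day 3. Gzma and the B cell gene Ms4a1, at means of 0.094 and 0.147 CPM in NC at ZT21, passed the filter on low counts only through LPS groups. The number of rises was therefore partly fixed by the filter. The granzyme gene Gzma, of cytotoxic cells, read 0.157, 0.125 and 0 CPM against 2.5, 3.43 and 1.92 CPM and rose by 4.74 ± 0.81 (edgeR adjusted p = 0.000711) and by 4.14 ± 0.89 against ZT5 (edgeR adjusted p = 0.00382). Of 8 plasma cell genes 3 were called higher, Jchain, Igkc and Ighm. In all 3 day 3 libraries 2 of the 8 lay above all 18 NC libraries and 1 below. The Jchain call was lost without day 3 replicate 1 or 2 or NC replicate 1 or 2, at edgeR adjusted p of 0.0572 to 0.0954. Ighm, the heavy chain of IgM, read 3.87, 7.38 and 7.14 CPM against 21.6, 31.8 and 31.5 CPM (2.2 ± 0.51, edgeR adjusted p = 0.00835). Its rise against ZT5 was 1.89 ± 0.54 (edgeR adjusted p = 0.0259). Immunoglobulin genes are near copies of each other, and the sources used here do not say how their reads were shared out.

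Other non-parenchymal cells gave fewer called genes. Of 18 genes of stellate cells and fibrosis 8 were higher and none lower, and 2 were higher than NC at ZT5. Tgfb1, the fibrogenic cytokine, read 4.44, 5.01 and 4.31 CPM against 13.1, 15.8 and 13.4 CPM and rose by 1.61 ± 0.18 (edgeR adjusted p = 2.13e-05) and by 0.90 ± 0.22 against ZT5 (edgeR adjusted p = 0.00891). Acta2, a smooth muscle actin of activated stellate cells, read 2.2, 0.810 and 0.793 CPM against 6.15, 7.97 and 31.8 CPM, with replicate 3 far above the other day 3 libraries (3.59 ± 0.81, edgeR adjusted p = 0.00735), and was not called against ZT5 at 3.23 ± 1.04 (edgeR adjusted p = 0.0511). Of 15 endothelial genes 3 were higher, Stab2, Pecam1 and Mrc1, and that count was 1 without day 3 replicate 2, 0 without NC replicate 3 and 9 in a fit of the 6 libraries alone. None was called against ZT5. The duct and progenitor factor Sox9, the called gene of 9 for cholangiocytes, read 3.96, 5.51 and 4.60 CPM against 16.7, 17.2 and 14.3 CPM and rose by 1.77 ± 0.16 (edgeR adjusted p = 4.44e-06), with 0.83 ± 0.27 against ZT5 (edgeR adjusted p = 0.055). Of 10 erythroid and platelet genes 4 were lower, all haemoglobin chains, at -2.38 to -2.76, and 1 was higher, the platelet chemokine gene Pf4, at 2.48 (edgeR adjusted p = 0.022). None of the 10 was called against ZT5. The Pf4 call was lost without day 3 replicate 3 or NC replicate 2. The count of lower genes was 0 without day 3 replicate 1, day 3 replicate 2 or NC replicate 2, and 1 without day 3 replicate 3. Haemoglobin chains are close copies whose reads may be shared.

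**Figure D2:**
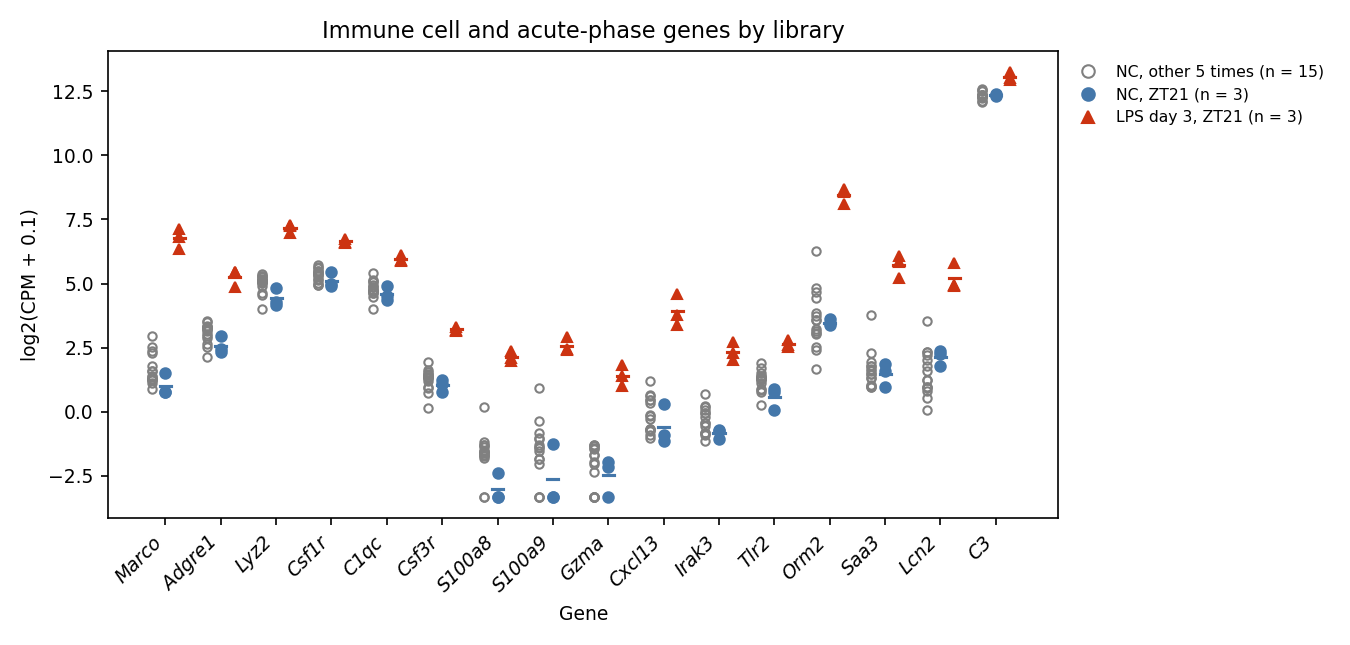
Expression of 16 genes of immune cells and the acute phase in each library, as log2 of CPM plus 0.1, by gene. Red triangles are LPS livers of day 3, blue points NC of ZT21 and grey circles the other 15 NC libraries, with bars at group means on the plotted scale. For Marco the triangles lie at 80.8 to 139 CPM, above every NC point.

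Acute-phase genes that were called were all higher on day 3. Of 32 tested, 18 were higher and none lower than NC at ZT21, with a median of 0.64. Against NC at ZT5 3 were higher, against the mean of NC over the 6 times 8, and against LPS of day 7 20. The median against NC at ZT5 was 0.72, so the smaller number of calls there did not go with a smaller median. The orosomucoid gene Orm2 read 10.2, 10.9 and 12.1 CPM in NC and 375, 413 and 277 CPM on day 3, where the highest of 18 NC libraries held 77.7 CPM. It rose by 5.00 ± 0.43 (edgeR adjusted p = 8.57e-06) and by 5.14 ± 1.14 against ZT5 (edgeR adjusted p = 0.00529). Saa3, the serum amyloid A form made outside hepatocytes as well, read 3.52, 1.84 and 2.89 CPM against 56.9, 66.3 and 37.3 CPM and rose by 4.27 ± 0.60 (edgeR adjusted p = 0.000331), and by 4.50 ± 1.20 against ZT5 (edgeR adjusted p = 0.0179). Orm3 rose by 3.49 ± 0.49 (edgeR adjusted p = 0.000204) and by 4.54 ± 1.13 against ZT5 (edgeR adjusted p = 0.0113). Lcn2, which encodes the iron-siderophore binder lipocalin 2, read 5.00, 4.70 and 3.30 CPM against 31.0, 30.1 and 55.8 CPM and rose by 3.16 ± 0.52 (edgeR adjusted p = 0.000927), with 3.51 ± 1.40 against ZT5 (edgeR adjusted p = 0.121). Orm and Saa genes are close copies, so their shares of reads are uncertain.

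The haem carrier gene Hpx read 3700, 3340 and 3870 CPM against 5960, 5970 and 5420 CPM, a rise of 0.66 ± 0.12 (edgeR adjusted p = 0.00139), with 0.76 ± 0.39 against ZT5 (edgeR adjusted p = 0.245). The central complement gene C3 read 5440, 5090 and 5250 CPM against 7760, 8240 and 9720 CPM, above all 18 NC libraries, a rise of 0.70 ± 0.13 (edgeR adjusted p = 0.00138), with 0.78 ± 0.27 against ZT5 (edgeR adjusted p = 0.0641). Ceruloplasmin, encoded by Cp, rose by 0.58 ± 0.10 (edgeR adjusted p = 0.00112), with 0.44 ± 0.33 against ZT5 (edgeR adjusted p = 0.468). Lcn2, Hpx, C3 and Cp also lost their calls against ZT21 when all 48 libraries were fitted. The same held for Ttr, Cxcl1, Fabp1, Ugt2a3 and Socs2, whose values are given below. The 14 acute-phase genes not called included haptoglobin (Hp), at 0.40 (edgeR adjusted p = 0.262), and Crp, at -0.13 (edgeR adjusted p = 0.587). Of 13 negative acute-phase proteins 1 was lower, transthyretin (Ttr), at -0.50 ± 0.17 (edgeR adjusted p = 0.0432), and it was called in 1 of the 6 fits that left out a library and not against ZT5, at -0.51 ± 0.23 (edgeR adjusted p = 0.184). Of 31 genes of complement and coagulation 4 were higher, C3 and the 3 C1q chains, and 4 lower, with a median of -0.11. Both counts are near the 10.3% of all genes in each direction. The count of lower genes was 1 to 3 with any 1 library left out.

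Sensors and targets of the LPS pathway rose in part. Of 18 genes of LPS sensing 4 were higher and none lower than NC at ZT21, and 2 were higher than NC at ZT5. Cd14, the co-receptor that hands LPS to TLR4, read 1.89, 1.28 and 1.3 CPM against 8.11, 9.15 and 11.7 CPM and rose by 2.69 ± 0.39 (edgeR adjusted p = 0.000217), with 2.21 ± 0.76 against ZT5 (edgeR adjusted p = 0.0706). Irak3, a kinase family member that restrains the pathway, read 0.503, 0.498 and 0.381 CPM against 3.96, 4.74 and 6.53 CPM and rose by 3.45 ± 0.29 (edgeR adjusted p = 1.51e-06), and by 2.76 ± 0.68 against ZT5 (edgeR adjusted p = 0.00994). Tlr2, the receptor for bacterial lipoproteins, rose by 2.11 ± 0.31 (edgeR adjusted p = 0.000251), with 1.41 ± 0.57 against ZT5 (edgeR adjusted p = 0.125). For these 3 genes no NC library of any time reached a day 3 library. Tlr4 itself was at 0.97 (edgeR adjusted p = 0.0503, not called), and the adaptor Myd88 at 0.03 (edgeR adjusted p = 0.897).

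Among targets of NF-kB and cytokines, 14 of 23 were higher and 1 lower, with a median of 1.41, while 3 were higher than NC at ZT5 and 9 higher than LPS of day 7. Cxcl13, a chemokine that draws B cells, read 1.13, 0.436 and 0.349 CPM against 10.3, 13.6 and 24.1 CPM and rose by 4.64 ± 0.46 (edgeR adjusted p = 1.15e-05) and by 3.32 ± 0.74 against ZT5 (edgeR adjusted p = 0.00498). Cxcl1, a neutrophil chemokine, read 2.30, 3.27 and 2.28 CPM against 13, 13.4 and 21.6 CPM and rose by 2.61 ± 0.28 (edgeR adjusted p = 1.8e-05), with 2.49 ± 0.98 against ZT5 (edgeR adjusted p = 0.115). Icam1, the adhesion molecule of leukocyte arrest, read 9.19, 6.91 and 8.09 CPM against 22.0, 21 and 22.9 CPM and rose by 1.44 ± 0.16 (edgeR adjusted p = 2.54e-05), with 1.05 ± 0.40 against ZT5 (edgeR adjusted p = 0.0989). The groups did not overlap in any of them. Tnf was at 2.23 (edgeR adjusted p = 0.137, not called), and Il6, Ccl4, Ccl7, Cxcl5 and Nos2 had too few counts to be tested. The gene of the inhibitor IkB-alpha, Nfkbia, was at -0.23 (edgeR adjusted p = 0.451).

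Interferon-stimulated genes gave few calls against NC at ZT21 and more falls than rises against NC at ZT5. Of 43 tested, 3 were higher and 2 lower than NC at ZT21, with a median of 0.46. The higher count was 5 with DESeq2's size factors in edgeR, 7 with DESeq2 and 10 in a fit of the 6 libraries alone, and the lower count was 1 or 2 with any 1 library left out. Against NC at ZT5 none was higher and 17 lower, with a median of -0.86. Stat2, the signal carrier of the type I interferon receptor, read 116, 110 and 117 CPM in NC at ZT21 and 64.0, 65.2 and 56.8 CPM on day 3, below all 18 NC libraries. It fell by 0.89 ± 0.12 (edgeR adjusted p = 8.85e-05) and by 0.99 ± 0.12 against ZT5 (edgeR adjusted p = 4.52e-06). Usp18, an interferon-induced brake on the receptor, was at 0.42 (edgeR adjusted p = 0.353) and at -2 against ZT5 (edgeR adjusted p = 0.000883). Of 20 genes of antigen presentation 2 were higher and 1 lower, against 10.3% of all genes in each direction. With any 1 library left out 1 to 3 were higher and 0 or 1 lower.

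Genes of fatty acid oxidation that were called were all lower on day 3. Of 34 tested none was higher, 15 were lower and 19 not called against NC at ZT21, with a median of -0.51, and 14 lay below all 18 NC libraries in every day 3 library. Compared with NC at ZT5 10 were lower, and against LPS of day 7 24. Slc25a20, the carnitine carrier that brings fatty acids into mitochondria, read 86.7, 94.2 and 98.9 CPM in NC and 48.8, 49.3 and 44.4 CPM on day 3. It fell by 0.98 ± 0.13 (edgeR adjusted p = 8.58e-05) and by 0.90 ± 0.18 against ZT5 (edgeR adjusted p = 0.00216). Acadvl, the dehydrogenase of very long chains, read 376, 387 and 379 CPM against 259, 263 and 292 CPM, a fall of 0.50 ± 0.08 (edgeR adjusted p = 0.000541), and of 0.35 ± 0.11 against ZT5 (edgeR adjusted p = 0.0494). Angptl4, an inhibitor of lipoprotein lipase and a target of PPAR-alpha, read 95.4, 128 and 74.9 CPM against 7.38, 7.22 and 4.19 CPM, below the lowest of 18 NC libraries at 17.9 CPM. It fell by 3.99 ± 0.48 (edgeR adjusted p = 0.000111) and by 3.50 ± 0.58 against ZT5 (edgeR adjusted p = 0.000378). Ppara itself was at -0.54 (edgeR adjusted p = 0.111), and Cpt1a, the entry enzyme of oxidation, at -0.63 (edgeR adjusted p = 0.124), neither called.

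A minority of lipogenic genes was called, each of them lower. Of 25 tested, none was higher, 9 were lower and 16 not called, with a median of -0.76, and the count was 5 without day 3 replicate 2. Against NC at ZT5 1 was higher and 6 lower, and against LPS of day 7 1 was higher and 17 lower. Scd1, the desaturase that makes oleic acid, read 7960, 9780 and 10400 CPM in NC and 1820, 1490 and 1150 CPM on day 3, below all 18 NC libraries. It fell by 2.66 ± 0.47 (edgeR adjusted p = 0.00137), by 2.74 ± 0.43 against ZT5 (edgeR adjusted p = 0.000179) and by 4.23 against LPS of day 7 (edgeR adjusted p = 0.000105). Thrsp, a lipogenic regulator also called Spot14, read 2050, 1660 and 1830 CPM against 106, 76.4 and 152 CPM and fell by 4.06 ± 0.45 (edgeR adjusted p = 5.08e-05), and by 2.03 ± 0.62 against ZT5 (edgeR adjusted p = 0.038). Pklr, liver pyruvate kinase, read 612, 502 and 647 CPM against 234, 205 and 102 CPM and fell by 1.71 ± 0.24 (edgeR adjusted p = 0.000165), with -0.99 ± 0.34 against ZT5 (edgeR adjusted p = 0.0621). The master regulator Srebf1 was not called at 0.39 (edgeR adjusted p = 0.271), and fatty acid synthase, Fasn, not at -1.03 (edgeR adjusted p = 0.229).

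Of 16 genes that make and handle polyunsaturated fatty acids, none was higher and 6 lower, with a median of -0.54, while 3 were lower than NC at ZT5 and 13 lower than LPS of day 7. Mfsd2a, a carrier of lysophospholipids with docosahexaenoic acid, read 49.5, 87.8 and 55.2 CPM against 0.339, 0.902 and 5.89 CPM and fell by 4.74 ± 0.96 (edgeR adjusted p = 0.00428), with -0.07 ± 0.91 against ZT5 (edgeR adjusted p = 0.976). Acsl1, which activates long fatty acids, read 1360, 1090 and 1340 CPM against 566, 647 and 502 CPM, below all 18 NC libraries, and fell by 1.15 ± 0.18 (edgeR adjusted p = 0.00032). Its change against ZT5 was -0.89 ± 0.30 (edgeR adjusted p = 0.0559). The fatty acid binding protein of liver, Fabp1, read 2600, 2250 and 2360 CPM against 1350, 1240 and 823 CPM and fell by 1.09 ± 0.24 (edgeR adjusted p = 0.00398), with -1.17 ± 0.41 against ZT5 (edgeR adjusted p = 0.0727). The first desaturase of the pathway, Fads2, was not called at -0.87 (edgeR adjusted p = 0.104).

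Cholesterol synthesis separated the day 3 libraries from each other. Of 24 genes none was higher and 5 were lower, with a median of -0.56, while 7 were lower than NC at ZT5, with a median of -1.05. Summed expression was 3620, 3150 and 3450 CPM in NC and 1680, 1470 and 4470 CPM on day 3, so replicate 3 lay above all NC libraries of ZT21 and replicates 1 and 2 far below. Without replicate 3, 19 of the 24 genes were lower, and 3 were without replicate 1, without replicate 2 or without NC replicate 3. Fdps, which makes farnesyl diphosphate, read 320, 282 and 315 CPM in NC and 71.5, 47.0 and 358 CPM on day 3. Sqle, the squalene epoxidase, read 88.9, 58.2 and 61.3 CPM against 19.8, 12.7 and 86.1 CPM. The sterol reductase Tm7sf2 fell by 1.12 ± 0.24 (edgeR adjusted p = 0.00447) and by 1.27 ± 0.22 against ZT5 (edgeR adjusted p = 0.00051). Fdps and Sqle were chosen after their values were seen, to show this split, whose cause was not tested.

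**Figure D3:**
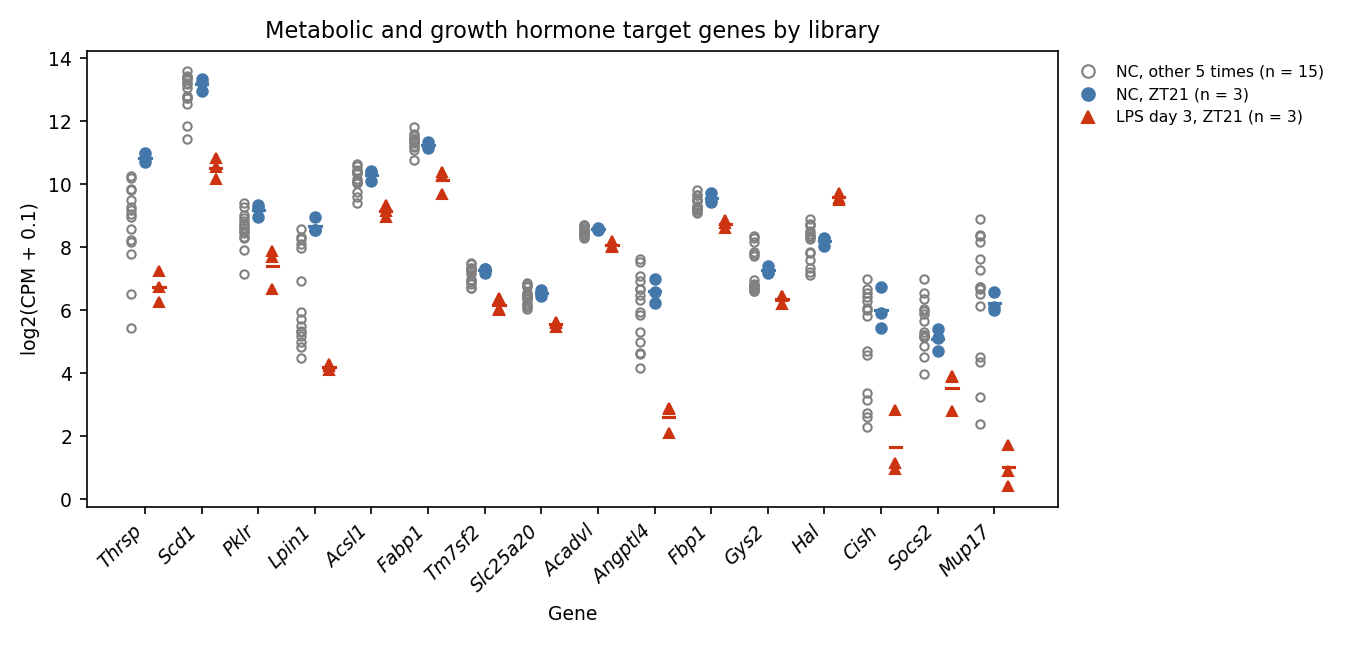
Expression of 16 metabolic and growth hormone target genes in each library, as log2 of CPM plus 0.1, by gene, with symbols as in the plot of immune genes. The Scd1 triangles lie at 1150 to 1820 CPM, below NC of ZT21 at 7960 to 10400 CPM, and Hal is a gene whose triangles, at 726 to 844 CPM, lie above.

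Genes of glucose production and glycogen were lower against NC at ZT21. Of 24 tested 1 was higher and 13 lower, with a median of -0.72, while none was higher and 3 lower than NC at ZT5, and 6 lower than the mean of NC over the 6 times. Fbp1, a gluconeogenic phosphatase, read 738, 698 and 835 CPM against 440, 465 and 390 CPM, below all 18 NC libraries. It fell by 0.82 ± 0.13 (edgeR adjusted p = 0.000322) and by 0.49 ± 0.13 against ZT5 (edgeR adjusted p = 0.0146). Gys2, the glycogen synthase of liver, read 152, 147 and 170 CPM against 87.4, 86.6 and 73.7 CPM and fell by 0.92 ± 0.13 (edgeR adjusted p = 0.000169), with -0.32 ± 0.18 against ZT5 (edgeR adjusted p = 0.289). Pck1 was at -2.19 (edgeR adjusted p = 0.115) and G6pc at -1.38 (edgeR adjusted p = 0.0821), the entry and exit enzymes of gluconeogenesis, and neither was called.

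Genes that break down amino acids were lower more often than higher against NC at ZT21. Of 29 tested 3 were higher and 11 lower, and 4 were higher and 1 lower against ZT5. The count of lower genes was 6, 7 and 6 without day 3 replicate 1, day 3 replicate 2 and NC replicate 2. The count of higher genes was 1 without day 3 replicate 1, day 3 replicate 2 or NC replicate 1. Asl, of the urea cycle, read 787, 1070 and 798 CPM against 318, 336 and 399 CPM and fell by 1.34 ± 0.21 (edgeR adjusted p = 0.000325), with -0.32 ± 0.19 against ZT5 (edgeR adjusted p = 0.34). Hal, which starts the breakdown of histidine, went the other way at 262, 315 and 305 CPM against 726, 844 and 763 CPM. All 3 day 3 values were above all 18 NC libraries, and the rise was 1.40 ± 0.17 (edgeR adjusted p = 4.64e-05) and 1.07 ± 0.18 against ZT5 (edgeR adjusted p = 0.000317).

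Detoxification genes gave as many rises as falls among P450 enzymes, and more falls than rises among conjugation enzymes. Of 33 xenobiotic P450 genes and regulators 4 were higher and 4 lower, near the 10.3% of all genes in each direction. With any 1 library left out 0 to 4 were higher and 2 or 3 lower. Nr1i2, which encodes the receptor PXR, fell by 0.81 ± 0.16 (edgeR adjusted p = 0.00201), with -0.14 ± 0.15 against ZT5 (edgeR adjusted p = 0.657). Of 32 conjugation enzymes 1 was higher and 8 lower, with a median of -0.22, and none was lower than NC at ZT5. That count of lower genes was 5, 5 and 4 without day 3 replicate 1, day 3 replicate 2 and NC replicate 3. Ugt2a3, a glucuronosyltransferase, read 202, 218 and 225 CPM against 133, 139 and 113 CPM, below all 18 NC libraries, and fell by 0.75 ± 0.12 (edgeR adjusted p = 0.000518), with -0.53 ± 0.27 against ZT5 (edgeR adjusted p = 0.247). Of 22 genes of bile acid synthesis and transport 3 were higher and 2 lower, near the 10.3% of all genes in each direction. With any 1 library left out 2 to 4 were higher and 0 to 2 lower. Nr0b2, which encodes the bile acid sensor's target SHP, read 19.1, 14.0 and 6.47 CPM against 123, 119 and 111 CPM, above the highest of 18 NC libraries at 68.5 CPM. It rose by 3.15 ± 0.49 (edgeR adjusted p = 0.0007), with 1.33 ± 0.43 against ZT5 (edgeR adjusted p = 0.0527), while its repressed target Cyp7a1, the rate-limiting enzyme of bile acid synthesis, was not called at -0.76 (edgeR adjusted p = 0.295).

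Hepatocyte identity genes are given beside these falls. Of 16, none was higher and 5 lower, with a median of -0.30, and 3 were lower without day 3 replicate 2, NC replicate 2 or NC replicate 3. Their sum was 125000, 140000 and 132000 CPM in NC and 120000, 117000 and 99200 CPM on day 3, while the macrophage, neutrophil and lymphocyte sums were higher on day 3 as given above. None of the 5 was lower than NC at ZT5. The part of cell makeup in these falls, and in the immune and acute-phase rises, was not tested.

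A minority of the genes known as growth hormone targets was called lower. Of 20 major urinary protein genes none was higher and 6 lower, with a median of -2.10 and 7 below all 18 NC libraries, and 1 was lower than NC at ZT5. The count was 0 to 2 with any 1 library left out, 3 with a replicate block, 9 with DESeq2 and 18 in a fit of the 6 libraries alone. Summed expression was 11600, 14800 and 13800 CPM in NC and 4870, 4410 and 2070 CPM on day 3. Mup17 read 95.6, 64.1 and 68.1 CPM against 1.77, 3.23 and 1.23 CPM and fell by 5.20 ± 1.31 (edgeR adjusted p = 0.0149), and the call was lost without day 3 replicate 1 or 3, at 0.0574 and 0.0527. Against ZT5 it fell by 5.13 ± 1.55 (edgeR adjusted p = 0.038). These genes are near-identical copies, so single members are uncertain and the sum is the safer value. Of 17 other genes of the growth hormone and IGF axis 1 was higher and 4 lower, the single rise being lost without day 3 replicate 1 or 3 or NC replicate 2 or 3. Cish, a feedback inhibitor induced by growth hormone through STAT5, read 43.0, 60.2 and 106 CPM against 2.14, 1.85 and 6.98 CPM. It fell by 4.25 ± 0.83 (edgeR adjusted p = 0.00334), with -2.70 ± 1.12 against ZT5 (edgeR adjusted p = 0.142), where NC itself stood at 23.7 ± 27.8 CPM (SD, n = 3). Socs2, of the same family, fell by 1.50 ± 0.43 (edgeR adjusted p = 0.0261) and by 2.35 ± 0.56 against ZT5 (edgeR adjusted p = 0.00903), though the first call was lost without day 3 replicate 2 or 3 or NC replicate 1 or 3, at 0.0524 to 0.0932. Igf1 was not called at -0.34 (edgeR adjusted p = 0.0584).

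Heat shock and glucocorticoid-responsive genes gave more falls than rises against NC at ZT21. Of 16 heat shock and cold-inducible genes 1 was higher and 9 lower than NC at ZT21, with a median of -0.86, whereas 4 were higher and none lower than NC at ZT5. The count of lower genes was 3, 4, 5 and 4 without day 3 replicate 1, day 3 replicate 2, NC replicate 1 and NC replicate 3. Hspa1a, an inducible HSP70 and a close copy of Hspa1b, read 31.8, 28.7 and 46.8 CPM against 3.47, 4.31 and 3.77 CPM and fell by 3.22 ± 0.68 (edgeR adjusted p = 0.00515), with 0.32 ± 0.71 against ZT5 (edgeR adjusted p = 0.84). Cirbp, the cold-inducible RNA-binding protein, read 12.9, 16.6 and 14.0 CPM against 31.2, 26.6 and 22.6 CPM and was the heat shock list's 1 rise, at 0.88 ± 0.19 (edgeR adjusted p = 0.00339), with 0.25 ± 0.20 against ZT5 (edgeR adjusted p = 0.499). Of 20 glucocorticoid-responsive genes 9 were lower, 1 higher and 10 not called, with a median of -0.59, and 1 was higher and none lower than NC at ZT5. Tsc22d3, which encodes GILZ, read 224, 270 and 141 CPM against 57.4, 58.2 and 64.9 CPM and fell by 1.82 ± 0.23 (edgeR adjusted p = 9.7e-05), with -0.06 ± 0.33 against ZT5 (edgeR adjusted p = 0.943). Errfi1, a brake on EGF receptor signalling, read 1170, 1170 and 1200 CPM against 377, 452 and 384 CPM and fell by 1.55 ± 0.17 (edgeR adjusted p = 1.74e-05), with 0.28 ± 0.33 against ZT5 (edgeR adjusted p = 0.682).

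Immediate early genes were mixed, with 7 of 19 higher and 3 lower, and 1 higher than NC at ZT5. The lower count was 1 without any 1 of the day 3 replicates or without NC replicate 3. Egr1, a growth factor-induced transcription factor, read 1.26, 2.71 and 0.761 CPM in NC at ZT21 and 83.4, 80.4 and 78.0 CPM on day 3. NC libraries of other times reached 83.7 CPM, and the change was 5.67 ± 1.03 against ZT21 (edgeR adjusted p = 0.00218) and 1.65 ± 0.90 against ZT5 (edgeR adjusted p = 0.287). Ier2 read 24.4, 24.7 and 24.3 CPM against 54.5, 46.0 and 43.5 CPM, above all 18 NC libraries, and rose by 0.97 ± 0.13 (edgeR adjusted p = 0.000121) and by 0.89 ± 0.17 against ZT5 (edgeR adjusted p = 0.00103). Dusp1, a phosphatase that switches off stress kinases, fell by 1.73 ± 0.24 (edgeR adjusted p = 0.000172), with -0.65 ± 0.26 against ZT5 (edgeR adjusted p = 0.124).

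Of 19 NRF2 targets 4 were higher and 1 lower, and with any 1 library left out 2 to 4 were higher and 0 to 3 lower. Osgin1, an oxidative stress-induced growth inhibitor gene, read 192, 98.2 and 143 CPM against 957, 699 and 936 CPM and rose by 2.58 ± 0.33 (edgeR adjusted p = 0.000114), with 0.40 ± 0.42 against ZT5 (edgeR adjusted p = 0.627). Of 19 iron genes 6 were higher and 4 lower, the latter 1 to 3 with any 1 library left out. Hmox1, the haem oxygenase, read 13.5, 10.6 and 12.9 CPM against 27.5, 31.5 and 29.0 CPM and rose by 1.24 ± 0.19 (edgeR adjusted p = 0.000347), with 1.11 ± 0.42 against ZT5 (edgeR adjusted p = 0.103). Hepcidin, Hamp, was not called at 1.18 (edgeR adjusted p = 0.104). Of 27 genes of the ER stress response 1 was higher and 3 lower, against 10.3% of all genes in each direction. The lower count was 1 or 2 with any 1 library left out.

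Ribosomal, mitochondrial and cell cycle genes were compared as well. Of 43 cytosolic ribosomal protein genes 1 was lower, with a median of -0.06, and none was with any 1 library left out. Of 13 genes encoded in mitochondria none was higher and 5 lower, with a median of -0.48, and none was lower than NC at ZT5. The lower count was 0 to 3 with any 1 library left out, 9 with DESeq2, and 10 both with a replicate block and in a fit of the 6 libraries alone. DNA replication genes were lower in 2 of 25, Mcm10 and Ccne2, and mitotic genes higher in 2 of 24, Mki67 and Bub1b. Over all genes 10.3% were called in each direction. The calls of both mitotic genes were lost with any 1 library left out. The mitotic count was 5 with DESeq2 and 8 in a fit of the 6 libraries alone. Against LPS of day 7, 21 of the 25 replication genes were lower, with a median of -2.37, and 7 of the 24 mitotic genes. The day 7 libraries differed from each other, with Mki67 at 16.9 ± 12.7 CPM (SD, n = 3). Over all genes, 1701 were called against day 7 without its replicate 1 and 3496 without its replicate 2. Against the mean of NC over the 6 times of day, the counts of several further lists moved by more than 1.5 times. Rises numbered 7 in LPS sensing, 7 in bile acid genes, 8 in P450 genes, 8 in amino acid genes, 7 in ER stress, 3 in iron genes and 4 in immediate early genes. Falls numbered 7 in clock output, 10 in polyunsaturated fatty acid genes, 10 in major urinary proteins, 5 in interferon-stimulated genes, 3 in amino acid genes and 3 in heat shock genes. They numbered 1 each in hepatocyte, P450, iron and ER stress genes and 0 in mitochondrially encoded genes.

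**Figure D4:**
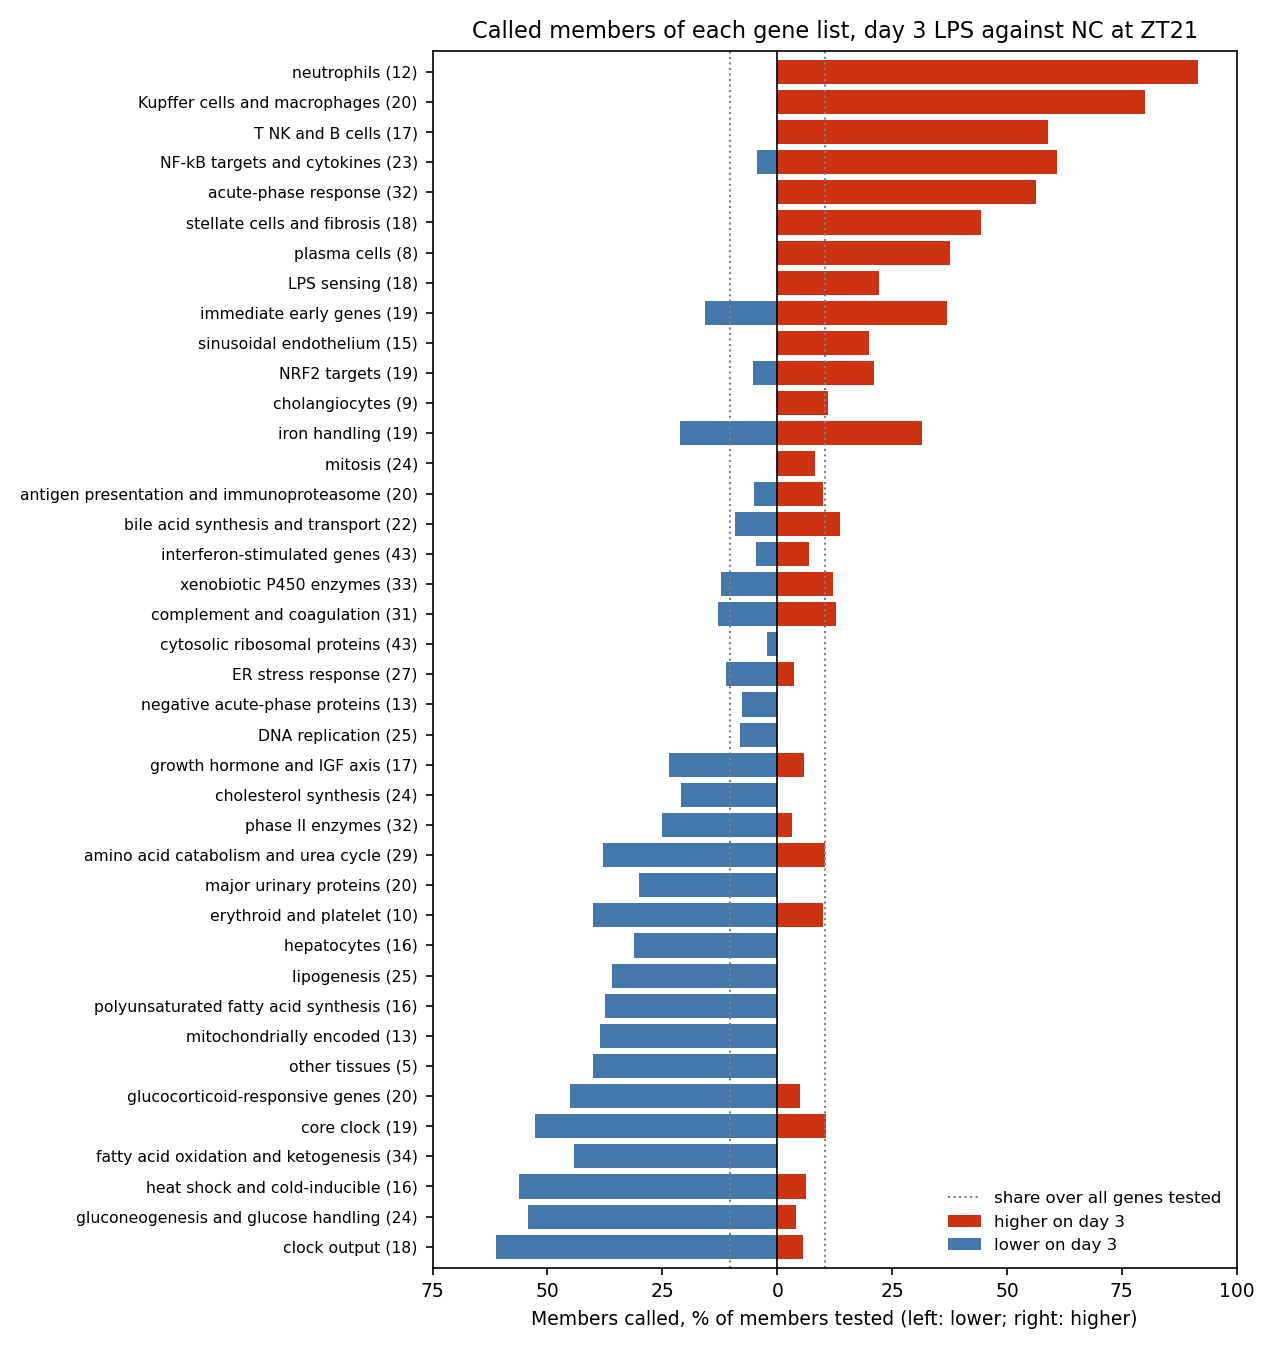
Called members of 40 gene lists, as a percentage of the members tested, whose number stands in brackets. Red bars to the right are members higher on day 3 than NC at ZT21, blue bars to the left are lower ones, and dotted lines mark the 10.3% of all genes tested. Neutrophil and macrophage lists reach furthest to the right, and clock output furthest to the left.

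The largest called changes, 15 in each direction, were taken among genes with a mean log2 CPM of at least 1 and no overlap. The neutrophil genes S100a8 and Ltf, under that level, rose by more than any of them, at 6.95 and 5.95. The 30 genes taken came from several of these groups. The rises were Marco, S100a9, Egr1, Orm2, Cxcl13, Npas2, Saa3, Nr1d1, Acta2, Bhlha15, Slc34a2, Orm3, Clec4n, Lcn2 and Nr0b2. The falls were Mup17, Usp2, Mfsd2a, Per1, Lpin1, Mup15, Cyp26b1, Serpina4-ps1, Cish, Nat8f6, Thrsp, Angptl4, Noct, Pnpla5 and Cabyr. Of these 30, the calls of Bhlha15, Npas2, Mup17, Mup15, Serpina4-ps1, Pnpla5 and Cabyr were lost when at least 1 of the 6 libraries was left out. Bhlha15, which encodes the secretory cell factor MIST1, read 1.10, 0.342 and 0.983 CPM against 13.6, 11.1 and 3.97 CPM (3.55 ± 1.00, edgeR adjusted p = 0.0241). Its call was lost without any of the NC libraries or without day 3 replicate 1 or 2, at adjusted p of 0.0556 to 0.0938, while its change against ZT5 was 6.43 ± 1.18 (edgeR adjusted p = 0.000978). Cyp26b1, which breaks down retinoic acid, read 18.2, 9.90 and 16.2 CPM against 0.261, 0.626 and 1.33 CPM and fell by 4.31 ± 0.69 (edgeR adjusted p = 0.000787), with -2.52 ± 1.13 against ZT5 (edgeR adjusted p = 0.177). Nat8f6, of a family of close copies, read 6.10, 6.13 and 6.06 CPM against 0.365, 0.326 and 0.271 CPM and fell by 4.24 ± 0.72 (edgeR adjusted p = 0.000986) and by 3.64 ± 0.85 against ZT5 (edgeR adjusted p = 0.00745).

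**Figure D5:**
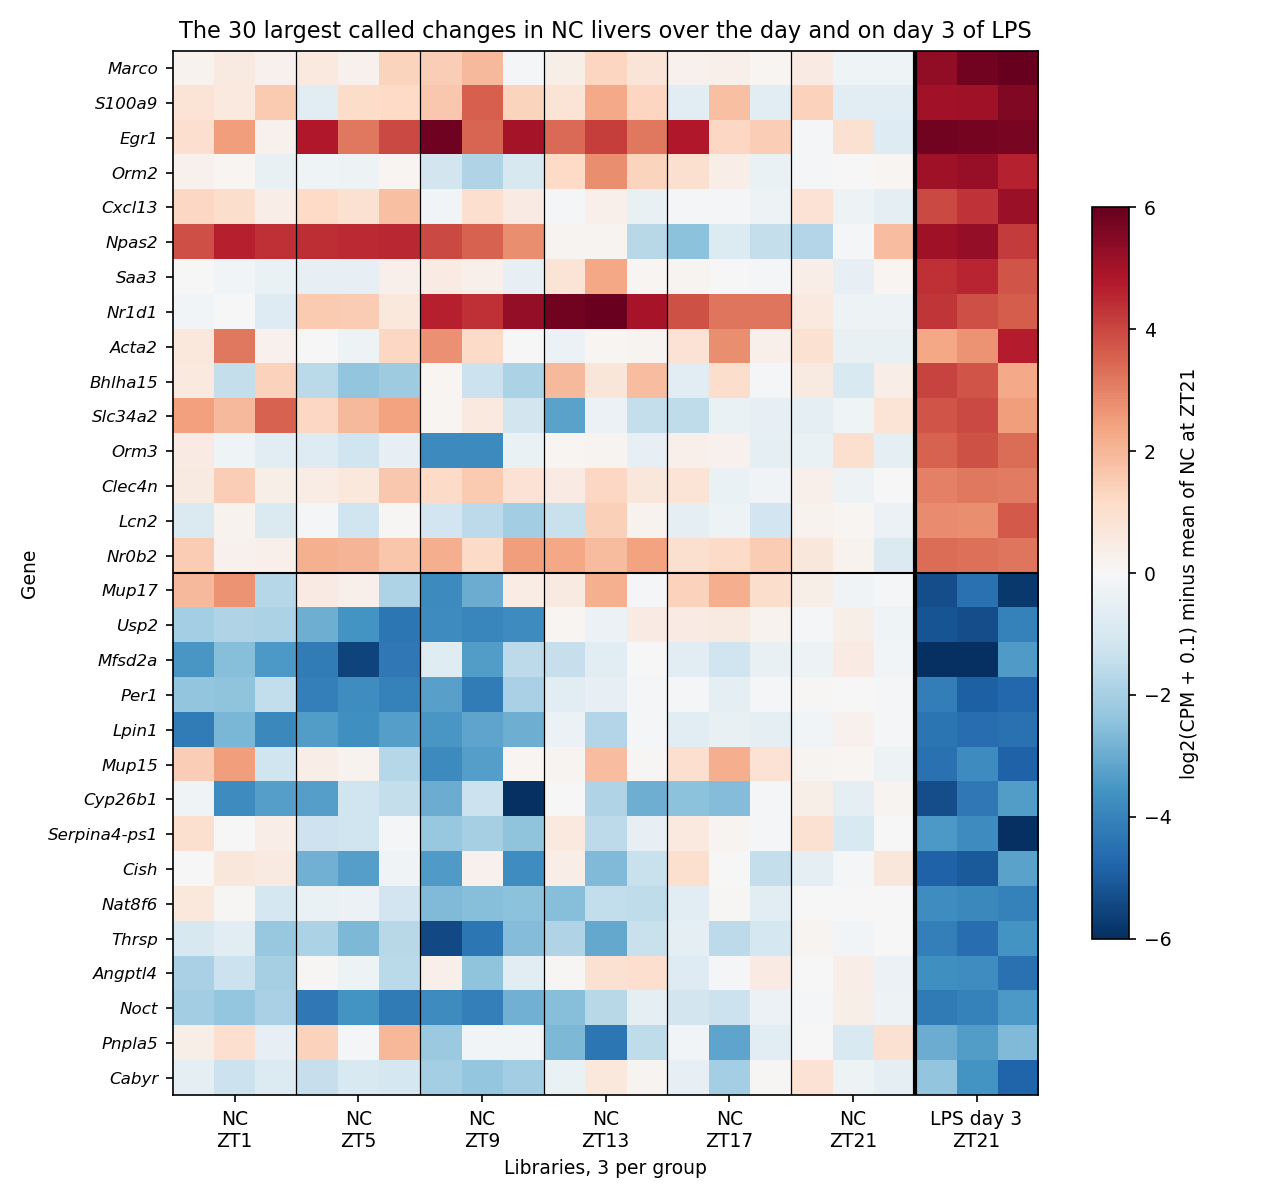
Rows are the 30 genes with the largest called changes at a mean log2 CPM of at least 1. Columns are the 18 NC libraries by time of day and the 3 LPS libraries of day 3. Colour is log2 of CPM plus 0.1 minus the mean of NC at ZT21, cut at 6 in either direction. For Marco the day 3 columns, at 80.8 to 139 CPM, are redder than any NC column, while Per1, at 3.52 CPM in its lowest NC library, is also blue in NC at ZT5.

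The LPS livers of ZT21 from later days are set beside day 3. Administration lasted 7 days, so days 9 and 11 lie after its end. The clock readings of later LPS livers differed too, at 1.2, 1.1 and 4.5 h on day 5 and 18.3, 20.8 and 19.7 h on day 7. Marco stood at 111 ± 29.3 CPM (SD, n = 3) on day 3 and at 19.4 ± 4.31, 12.4 ± 5.01, 7.85 ± 1.61 and 8.81 ± 2.52 CPM on days 5, 7, 9 and 11. Orm2 stood at 355 ± 70.1 CPM on day 3 and at 31.0 ± 2.92, 19 ± 12.6, 11.6 ± 3.49 and 12.2 ± 2.58 CPM on those days. For both, the day 3 mean was the highest, by more than the SDs. Lcn2 was 39.0 ± 14.6 CPM on day 3 and 31.2 ± 14.3 CPM on day 5, which overlap, and 5.58 ± 3.27 CPM on day 7. Scd1 rose from 1490 ± 336 CPM on day 3 to 16300 ± 3020 CPM on day 5 and 27700 ± 17400 CPM on day 7, and was at 5560 ± 1900 CPM on day 11. Per1 went from 2.74 ± 0.78 CPM on day 3 to 9.01 ± 4.43 CPM on day 5 and 37.0 ± 4.61 CPM on day 7. In each of these genes the day 3 mean was the highest or the lowest of the 5 days sampled in the LPS group. The direct test of day 3 against day 7 was passed by 23 of the 30 genes listed above for the largest changes. S100a9, Egr1, Acta2, Mup17, Mup15, Serpina4-ps1 and Cabyr did not pass it. Over all genes 17.3% passed, and the 30 were chosen by the values of the same day 3 libraries, which favours a pass.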

How the data were processed

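Liver RNA was sequenced from poly(A)-captured, strand-specific dUTP libraries read as pairs of 150 bases, per the labels' protocols. The submitters' processing notes name the build GRCm38 and, without roles, the aligner STAR 2.5.2b, the assembler StringTie 2.2.1, DESeq2 1.38.1, SAMtools 1.3.1 and, for read quality, FastQC 0.11.5. The authors deposited raw read counts per gene symbol. The counting step, strand setting, annotation and filters were not given in the sources used here. Genes that overlap or are near copies may share reads. Intervals cover counting error only.

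The 18 libraries of ZT21 were fitted together in edgeR 4.0.16 (R 4.3.3, limma 3.58.1), with filterByExpr, TMM scaling, robust quasi-likelihood dispersions and Benjamini-Hochberg adjustment over all genes tested, at a threshold of 0.05. That fit has 12 residual degrees of freedom. In it, genes near 0 in NC could pass the filter only through LPS groups, which favours rises among them. Comparisons with NC at ZT5 and with the mean of NC used all 48 libraries (16858 genes tested). CPM are the counts scaled with the TMM factors of the 48 libraries. SE is the log2 change divided by the square root of F. Clock times came from cosine curves fitted to the NC libraries, read on a grid of 0.1 h. The procedures were tested on simulated data.

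Gene models of GENCODE M21 on GRCm38 matched 28535 symbols directly and 276 through synonyms. The members and the 40 lists were chosen with earlier results of these data known. Genes named were the 15 largest rises and 15 largest falls with a mean log2 CPM of at least 1 and no overlap, all core clock genes, and up to 4 called members a list by p. Predicted gene models were left out of the largest changes. Other list members, such as genes that were not called, were chosen after their values were seen. Alternatives included DESeq2 1.42.0, other scaling, no filter, a replicate block, leaving out each library and other sets of libraries. Values of a few list members are not reported here.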

Additional observations from a re-analysis of the deposited data

Results flagged for a closer look

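Among the 30 genes listed for the largest changes against NC at ZT21, 23 also differed between LPS livers of day 3 and day 7. That difference was tested directly with edgeR's quasi-likelihood test and Benjamini-Hochberg adjustment. Both comparisons use the same day 3 libraries, by whose values the 30 genes were chosen, so a pass was favoured in advance. Over all genes tested, 17.3% were called against day 7. Among the rises, the log2 difference from day 7 was 3.14 for Marco, 4.20 for Orm2, 4.01 for Cxcl13, 5.82 for Npas2, 4.82 for Saa3, 2.17 for Nr1d1, 2.97 for Bhlha15, 2.00 for Slc34a2, 3.71 for Orm3, 1.77 for Clec4n, 2.78 for Lcn2 and 2.14 for Nr0b2. Among the falls, it was -4.75 for Usp2, -4.98 for Mfsd2a, -3.76 for Per1, -2.65 for Lpin1, -3.33 for Cyp26b1, -4.19 for Cish, -3.10 for Nat8f6, -3.88 for Thrsp, -2.85 for Angptl4, -2.79 for Noct and -5.74 for Pnpla5. The clock genes of the day 3 and day 7 libraries read different hours, and the part of that offset in these differences was not tested.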

How the results depend on the processing

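The 3303 genes called against NC at ZT21 became 238 when a log2 change of at least 1 was tested for, and 2109 to 2563 with 1 library left out, the lowest without NC replicate 2 and 2182 without NC replicate 3. DESeq2 called 3740 and the 6 libraries alone 3594. The 1233 called against NC at ZT5 became 7 with that minimum change, 2130 in the 6 libraries alone, 638 with day 3 replicates 1 and 2 summed, 2031 with day 3 and the 18 NC libraries, and 557 to 870 with 1 library left out, with 764 and 578 without day 3 replicates 1 and 2 and 557, 571 and 812 without NC ZT5 replicates 1, 2 and 3. The 2790 called against LPS of day 7 became 90, 1220 and 1697 under the first 3 of these, and 1605 to 3496 with 1 library left out, with 1729 and 1605 without day 3 replicates 1 and 2 and 1701 without day 7 replicate 1. The minimum change also moved the share of rises to 72.7% against NC at ZT21, 42.9% against ZT5 and 33.3% against day 7.

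Day 3 libraries and same-numbered libraries deviated from their group means with correlations of -0.0143, -0.00158 and -0.0268 for NC at ZT21, 0.0641, 0.0150 and 0.0579 for NC at ZT5, and -0.0545, 0.0903 and 0.131 for LPS of day 7. No comparison had all 3 above 0.1, so the samples were not treated as pairs. With a replicate block 3419, 1311 and 2898 genes were called in the comparisons with ZT21, ZT5 and day 7, and 160 of the 162 named genes were on the same side of the threshold. Signs turned against the mean of NC at 6 times for Clock (0.01), Cry1 (0.16), Rora (0.10) and Nfil3 (0.20), for Nr1d2 without day 3 replicate 2 (0.01, range -0.26 to 0.01 with 1 library left out) and for Bhlhe41 without NC replicate 1 (0.12, range -0.50 to 0.12). The causes were not tested. The mean clock reading of day 3 was 6.0 to 6.7 h and that of NC 21.4 to 22 h under the alternatives run. Genes with few counts are limited by depth.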
